A study of Homo sapiens with 6 samples.

Results

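Epithelial-mesenchymal transition (EMT) is the program by which cells give up the junctions of an epithelium and take on the filaments, matrix and motility of mesenchymal cells. Repressors that bind E-boxes, among them the proteins encoded by ZEB1, SNAI2 (SLUG) and TWIST1, shut off CDH1 (E-cadherin) and other junction genes, while VIM (vimentin), CDH2 (N-cadherin) and FN1 (fibronectin) are the usual readouts of the mesenchymal side. MDA-MB-231, an established human cell line from a breast adenocarcinoma, is widely used as a basal-like, mesenchymal model of breast cancer.

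The genes described here are VIM, CDH1, CDH2, ZEB1, SNAI2, TWIST1, FN1, CD44 and EPCAM, chosen by symbol as a short panel of epithelial-mesenchymal state. All 9 were found among the 58735 genes of the deposited table. They were measured by polyA RNA sequencing in MDA-MB-231 cells that received either 0 Gy (3 libraries) or 10 Gy from a 137Cs source (3 libraries), with RNA taken 24 h later. The labels name all libraries SCR and give the genotype as WT, and the study describes its SCR cells as carrying a non-targeting shRNA, so both doses share that vector. Nothing in the labels says whether the 3 libraries of a dose came from separate cultures, so p-values measure the spread between libraries, which may be technical. Knockdown cells were not analysed here.

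Recovered reads per library ranged from 15643641 to 28861781. Values are FPKM, fragments scaled to gene length and to library depth, as deposited. The deposited values carry a scaling factor for each library, above 1 in every library at 0 Gy and below 1 in every library at 10 Gy, so the scale of the values differs with dose and was varied below. The doses were set against each other by limma, on the log2(FPKM + 1) scale, for the 12128 genes whose mean reached 1 FPKM. A gene was called where its p, adjusted by the Benjamini-Hochberg method, fell under 0.05. Of all genes tested, 35.6% were called, 11.9% higher and 23.7% lower at 10 Gy, and the median log2 change of all genes tested was -0.04. Rescaling the libraries changed that split, to 25.8% higher and 8.83% lower with TPM (each library brought to the same sum of FPKM), 21.1% and 11.9% with upper quartile scaling, 18.9% and 13.6% with own library size, and 16% and 16.9% with median-of-ratios scaling. With TPM the median log2 change of all genes tested was 0.07. Of 9 luminal breast markers, the progesterone receptor gene PGR was listed at 0 in every library and the estrogen receptor gene ESR1 averaged 0.00872 FPKM at 0 Gy. FOXA1 was at 0.0241 FPKM, TFF1 at 1.08 FPKM and ERBB2 at 7.08 FPKM. The others stood at 3.05 FPKM (GATA3), 28.6 FPKM (XBP1), 94.97 FPKM (KRT8) and 109 FPKM (KRT18), so the list did not go in 1 direction.

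Upstream DNA is shown for VIM and ZEB1, the members with the most stable calls, and for the matrix gene FN1, which was not called, beside the E-box, the site that gives ZEB1 its name. The windows are those of RefSeq on GRCh38.p14, which lists starts for 5 of the 9 members (CD44, CDH2, FN1, VIM and ZEB1) in 12 windows. The 250 bases before each start were searched on both strands for the E-box CAGGTG and for the cyclic AMP response element TGACGTCA, a palindrome bound by CREB and ATF proteins. Capitals mark a match, and bases inside the annotated gene were left off. The first stretch ends just before the first listed start of ZEB1, at chr10:31318167-31318416 on the plus strand, and the second lies upstream of FN1 at chr2:215436173-215436318 on the minus strand. The third lies upstream of VIM at chr10:17227991-17228240 on the plus strand and holds neither motif.
ZEB1: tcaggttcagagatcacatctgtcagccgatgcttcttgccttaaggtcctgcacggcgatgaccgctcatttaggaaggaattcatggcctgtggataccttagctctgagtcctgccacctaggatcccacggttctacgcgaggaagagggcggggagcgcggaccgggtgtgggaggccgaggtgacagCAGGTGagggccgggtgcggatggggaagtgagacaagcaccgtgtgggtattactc
FN1: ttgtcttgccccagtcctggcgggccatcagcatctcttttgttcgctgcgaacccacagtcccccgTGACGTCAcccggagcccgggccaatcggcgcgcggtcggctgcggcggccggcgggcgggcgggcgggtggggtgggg
VIM: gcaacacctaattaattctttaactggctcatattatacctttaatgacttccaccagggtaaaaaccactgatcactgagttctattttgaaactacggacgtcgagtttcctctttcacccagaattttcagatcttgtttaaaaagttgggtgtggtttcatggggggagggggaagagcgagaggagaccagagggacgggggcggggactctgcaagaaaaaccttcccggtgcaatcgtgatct

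An E-box of these letters was present upstream of 2 of the 7 ZEB1 starts and of no other member start in the table. Among all 35116 windows of that length, 17.5% hold it. The cyclic AMP response element was present upstream of FN1 alone among these members, against 1.65% of all windows. These are matches of letters, and binding was not measured in these libraries.

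In cells without irradiation the panel ran from 300.85 FPKM for VIM to 0.0938 FPKM for CDH2 and a single read for TWIST1, with the mesenchymal filament gene at the top and the E-cadherin gene near the bottom. The mean levels fell in the order VIM, CD44, FN1, ZEB1, SNAI2, EPCAM, CDH1, CDH2 and TWIST1. Between each pair of neighbours in that order, all 3 libraries at 0 Gy of the higher gene exceeded all 3 of the lower gene, except that CDH2 and TWIST1 cannot be ordered, since the 5 reads of CDH2 in 0 Gy replicate 1 gave 0.0474 FPKM, under the 0.0692 FPKM that a count of 0 allows for TWIST1 there. FPKM divides by the summed exon bases of every transcript of a gene, which is longer than any single coding transcript, by 2.42 times for VIM and 1.94 times for FN1. Dividing by the longest coding transcript of GENCODE 29 instead gave the same order.

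**Figure D1:**
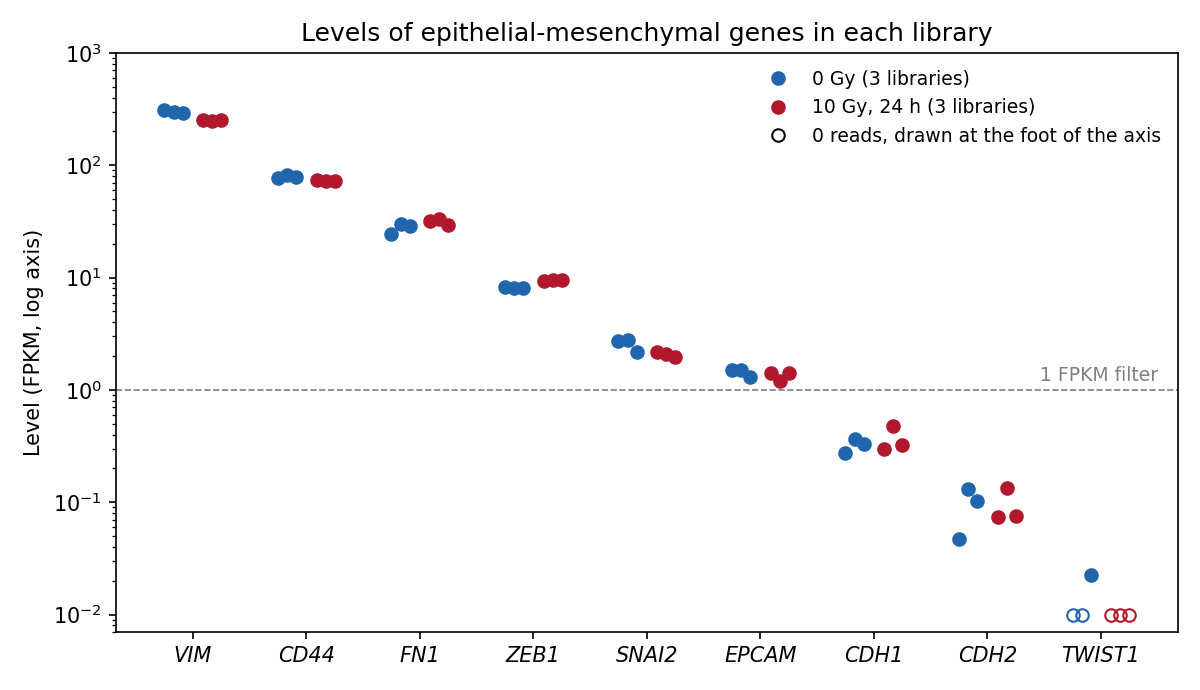
Levels of the 9 genes in each library, in FPKM on a log axis, with blue points for the 3 libraries at 0 Gy and red points for the 3 libraries at 10 Gy. VIM lies near 300.85 FPKM at 0 Gy, CDH1 and CDH2 lie under the 1 FPKM filter in every library, and TWIST1 has a read in a single library.

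Among the epithelial members, CDH1 encodes the calcium-dependent adhesion receptor of epithelial adherens junctions and lies on chromosome 16 of GRCh38 from 68737225 to 68835548. It was at 0.273, 0.369 and 0.329 FPKM at 0 Gy, from 36, 35 and 44 reads. At 10 Gy it was at 0.298, 0.479 and 0.322 FPKM, from 55, 54 and 43 reads. CDH1 was therefore detected in every library, and the doses overlapped (exact permutation test, two-sided p = 0.700, where 3 libraries against 3 allow 0.1 at the smallest). With a mean under 1 FPKM it was not tested in the main fit across genes.

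EPCAM encodes an epithelial surface adhesion protein and lies on chromosome 2 from 47345158 to 47387601. Its values were 1.51, 1.498 and 1.301 FPKM at 0 Gy, and 1.42, 1.20 and 1.41 FPKM at 10 Gy. The doses overlapped, with means of 1.44 ± 0.116 and 1.34 ± 0.127 FPKM (SD, n = 3 each). The log2 change was -0.06, with a 95% interval from -0.23 to 0.12 and an adjusted p of 0.582 from limma.

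VIM, on chromosome 10 from 17228259 to 17237593, encodes the intermediate filament protein of mesenchymal cells. It was the most abundant member and ranked 86 among all 58735 genes by its mean at 0 Gy, above 99.3% of the genes tested. The libraries at 0 Gy stood at 312, 297 and 294 FPKM, and those at 10 Gy at 251, 247 and 255 FPKM. Every irradiated library lay below every unirradiated one. The mean fell from 300.85 ± 9.54 to 251 ± 3.88 FPKM (SD, n = 3 each), a log2 change of -0.26 (standard error 0.038, 95% interval -0.35 to -0.17, adjusted p = 0.00285 from limma). The fold was 1.20, and no scaling, filter or left-out library ended the call, though TPM scaling brought the log2 change to -0.13.

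CDH2 encodes the cadherin that often replaces E-cadherin in mesenchymal cells, and lies on chromosome 18 from 27950966 to 28177446. It was nearly silent in these cells, with 5, 10 and 11 reads at 0 Gy and 11, 12 and 8 reads at 10 Gy. The means were 0.0938 ± 0.0427 FPKM at 0 Gy and 0.0939 ± 0.0337 FPKM at 10 Gy (SD, n = 3 each). At this depth a difference was not detectable, with an exact permutation p of 1 (two-sided, n = 3 each).

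In every library CDH2 stood below CDH1. The FPKM of CDH2 was between 0.173 and 0.357 times that of CDH1 at 0 Gy, and between 0.232 and 0.277 times at 10 Gy. Other cadherins stood on both sides of this level. CDH3 (P-cadherin) was at 0.105 FPKM at 0 Gy, and CDH6 was listed at 0. CDH11, the cadherin of mesenchymal and bone cells, was at 7.75 FPKM at 0 Gy and 10.3 FPKM at 10 Gy. The log2 change of CDH11 was 0.36 (adjusted p = 0.00112 from limma). CDH4 (R-cadherin), whose fall is given below, was at 7.43 FPKM at 0 Gy.

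FN1 encodes the matrix glycoprotein fibronectin and lies on chromosome 2 from 215360440 to 215436172. Its values were 24.5, 29.9 and 28.8 FPKM at 0 Gy, and 31.9, 33.0 and 29.6 FPKM at 10 Gy. The lowest irradiated library lay under the highest unirradiated one, so the doses overlapped. The means were 27.7 ± 2.83 and 31.5 ± 1.78 FPKM (SD, n = 3 each), a log2 change of 0.18 (standard error 0.076, 95% interval 0.00 to 0.36). The adjusted p was 0.101 from limma, so FN1 was not called on the deposited scale. It was called with upper quartile scaling (0.27), own library size (0.25), TPM (0.31) and limma-voom on the recovered reads (0.19), and its log2 change was 0.10 without 0 Gy replicate 1.

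Of the regulators, ZEB1 encodes the zinc finger and homeobox repressor of CDH1 and lies on chromosome 10 from 31318495 to 31529814. It was at 8.23, 8.09 and 8.12 FPKM at 0 Gy, and at 9.24, 9.46 and 9.48 FPKM at 10 Gy. Every irradiated library lay above every unirradiated one, and the spread within a dose was small. The mean rose from 8.15 ± 0.0773 to 9.39 ± 0.133 FPKM (SD, n = 3 each), a log2 change of 0.18 (standard error 0.033, 95% interval 0.11 to 0.26, adjusted p = 0.00576 from limma). Other scalings raised the log2 change to between 0.23 and 0.30 and kept the call.

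SNAI2, on chromosome 8 from 48917604 to 48921740, encodes the Snail-family repressor SLUG. It was at 2.72, 2.76 and 2.18 FPKM at 0 Gy, and at 2.18, 2.07 and 1.97 FPKM at 10 Gy. Of the irradiated libraries, 2 lay under the lowest unirradiated one, and the third stood just above it. The log2 change was -0.21 (standard error 0.079, 95% interval -0.39 to -0.02, adjusted p = 0.0792 from limma), and SNAI2 was not called. Without 0 Gy replicate 3 the log2 change was -0.28 and passed the threshold (adjusted p = 0.0205 from limma), with adjusted p between 0.0205 and 0.283 over all alternatives.

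TWIST1 encodes a basic helix-loop-helix regulator of mesoderm and lies on chromosome 7 from 19020991 to 19117672. It had 1 read in 0 Gy replicate 3 and 0 reads in the other libraries. A count of 0, taken as up to 3 reads, allows between 0.0493 and 0.0960 FPKM in these libraries, for counting error only. No change with dose could be measured.

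CD44, on chromosome 11 from 35138870 to 35232402, encodes the main hyaluronan receptor, used as a surface marker of mesenchymal and stem-like breast cancer cells. Its values were 76.3, 81.4 and 78.1 FPKM at 0 Gy, and 73.7, 72.3 and 72.8 FPKM at 10 Gy. The doses did not overlap. The mean fell from 78.6 ± 2.60 to 73.0 ± 0.697 FPKM (SD, n = 3 each), a log2 change of -0.11 (standard error 0.033, 95% interval -0.18 to -0.03, adjusted p = 0.0439 from limma). That call held in 3 of 16 alternatives (adjusted p from 0.0182 to 0.771 over all 16, limma). It ended without 0 Gy replicate 2 or 3 or any single library at 10 Gy, with adjusted p between 0.0821 and 0.138 from limma. With TPM scaling the log2 change was 0.02, so the direction for CD44 depends on the scaling. Gene-level values do not separate the standard from the variant isoforms of CD44, which GENCODE 29 lists with 39 transcripts.

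**Figure D2:**
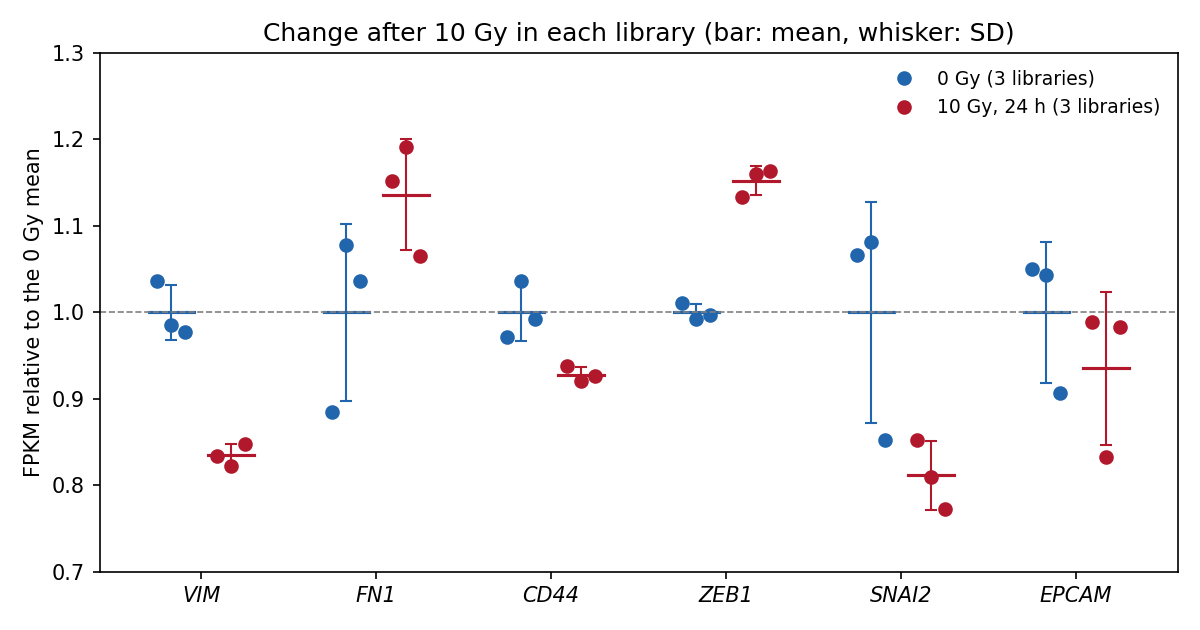
FPKM of the 6 tested genes in each library, divided by the gene's mean at 0 Gy, with bars for the mean and whiskers for the SD of 3 libraries per dose. VIM and CD44 lie lower and ZEB1 higher in all 3 irradiated libraries, while FN1, SNAI2 and EPCAM overlap between doses.

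In all, 6 of the 9 members passed the filter on low values, and 3 of these were called, 2 lower (VIM and CD44) and 1 higher (ZEB1). Across all genes tested the background was 35.6% called, and a count this small is read only as near it. The doses did not overlap for 3 of the 6 tested members, against 51.9% of all genes tested. On the log2(FPKM + 1) scale the largest fold was that of VIM, 1.20, while by the ratio of mean FPKM SNAI2 (0.812) changed more than VIM (0.835). Each stayed under 1.3-fold, the threshold that the study set for MAFF knockdown against control cells, not for irradiation. That fold and the adjusted p together were passed by 5.77% of all genes tested. The median log2 change of the 6 was -0.08.

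**Figure D3:**
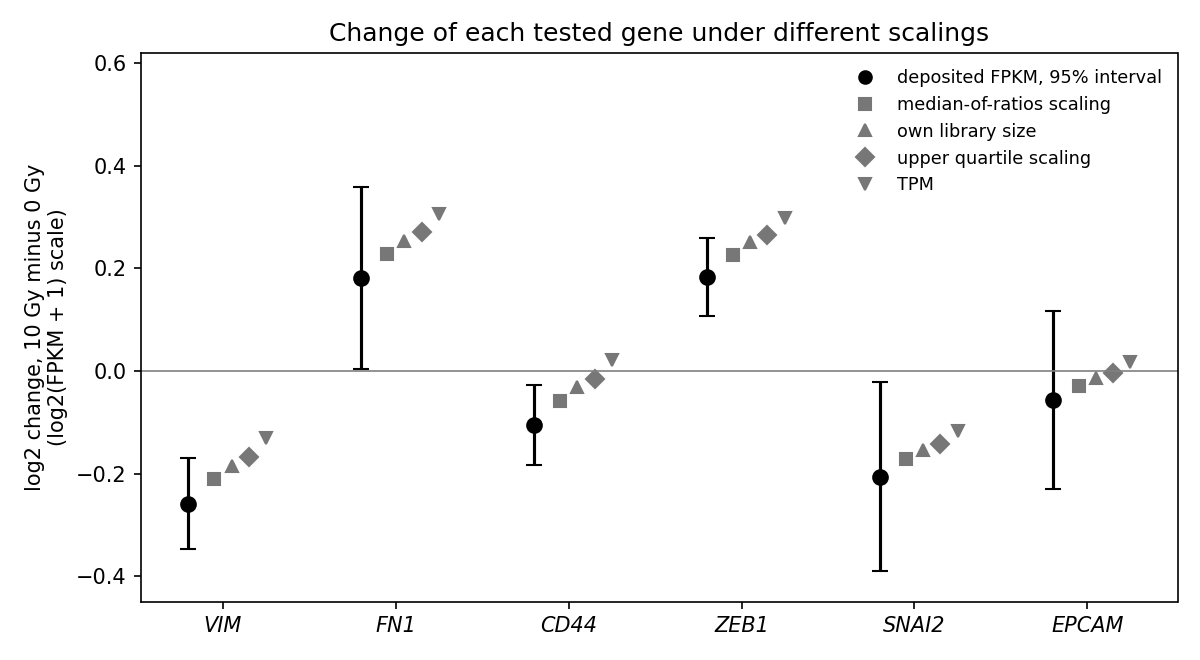
log2 change after 10 Gy of the 6 tested genes, as black points with 95% intervals for the deposited FPKM and grey symbols for 4 other scalings. VIM stays below 0 and ZEB1 above 0 under each, whereas CD44 and EPCAM reach 0.02 with TPM.

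Ratios of members within a library do not depend on how that library was scaled, and they were described without a test. The FPKM of VIM was between 36.2 and 37.9 times that of ZEB1 at 0 Gy, and between 26.2 and 27.2 times at 10 Gy. The ratio of the filament gene to the repressor gene was lower in every irradiated library. The FPKM of SNAI2 was between 0.268 and 0.342 times that of ZEB1 at 0 Gy, and between 0.208 and 0.236 times at 10 Gy. FN1 was between 0.0787 and 0.101 times VIM at 0 Gy, and between 0.116 and 0.133 times at 10 Gy. CD44 was between 0.245 and 0.275 times VIM at 0 Gy, and between 0.285 and 0.294 times at 10 Gy. Of 12 ratios computed, these 4 did not overlap between doses and the other 8, all of them over CDH1 or EPCAM, did. The plan named only VIM, CDH2 and FN1 over CDH1 and EPCAM, and every planned ratio overlapped. The 4 that separated were outside the plan and each holds VIM or ZEB1, so they largely restate the calls of those members. No share of separation among ratios of other genes was computed. VIM over CDH1 overlapped, with 804 to 1141 at 0 Gy and 517 to 843 at 10 Gy, and so did VIM over EPCAM, with 198 to 226 and 177 to 207.

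**Figure D4:**
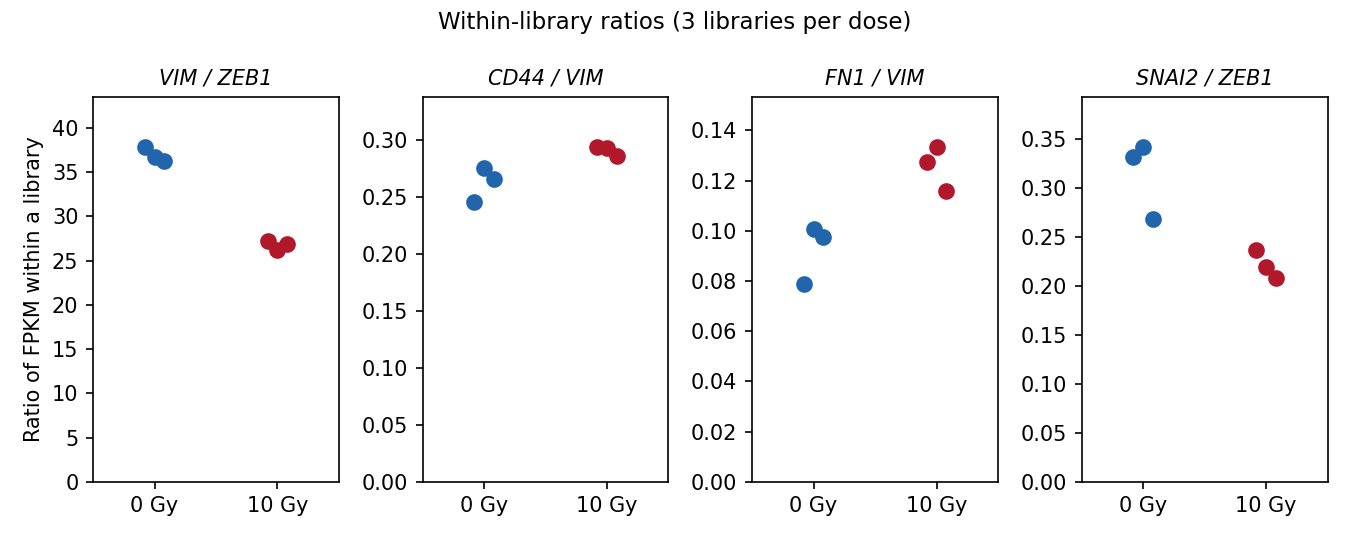
Ratio of FPKM within each library for VIM over ZEB1, CD44 over VIM, FN1 over VIM and SNAI2 over ZEB1, with 3 points per dose and axes from 0. VIM over ZEB1 lies between 36.2 and 37.9 at 0 Gy and between 26.2 and 27.2 at 10 Gy.

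The genes most like VIM over the 6 libraries, by the root mean square difference of centred log2(FPKM + 1) among 10490 other protein-coding genes, were ANXA1 (0.0072), AP1M1 (0.0074) and C1QBP (0.012). The closest to ZEB1 were HSP90B1 (0.013), SIRT2 (0.015) and DNASE1 (0.016). ANXA1 encodes annexin A1 and HSP90B1 an endoplasmic reticulum chaperone. DNASE1 was itself not called (adjusted p = 0.0846 from limma).

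Antisense genes share exon bases with several members, and the sources used here do not say whether reads were counted by strand. VIM-AS1 shares 641 exon bases with VIM and was at 1.36 ± 0.284 FPKM at 0 Gy and 1.099 ± 0.0804 FPKM at 10 Gy (SD, n = 3 each, adjusted p = 0.241 from limma). ZEB1-AS1 shares 366 exon bases with ZEB1 and was at 0.760 FPKM at 0 Gy and 0.947 FPKM at 10 Gy, under the filter. CD44-AS1 shares 84 exon bases with CD44 and rose from 0.671 ± 0.0348 to 1.34 ± 0.137 FPKM (SD, n = 3 each), a log2 change of 0.48 (adjusted p = 0.00372 from limma), passing the filter through its level at 10 Gy. These 3 partners stood far below their members. AC110015.1, which shares 136 exon bases with CDH2, averaged 0.181 FPKM over the 6 libraries, above the 0.0939 FPKM of CDH2 itself.

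The wider epithelial list (34 genes, CDH1 and EPCAM included) showed which epithelial features these cells keep. In the unirradiated cells 18 of the 34 were under 1 FPKM, among them the epithelial splicing factor ESRP1 (0.0457 FPKM) and the epithelial transcription factor GRHL2 (0.00358 FPKM), and OVOL1 was listed at 0 in every library. Simple keratins and some junction genes stood high in the same libraries, with KRT18 at 109 FPKM, KRT8 at 94.97 FPKM, KRT19 at 90.9 FPKM and CLDN4 at 21.6 FPKM. Of 17 tested, 3 were called higher and 7 lower (all genes tested: 11.9% and 23.7%), with a median log2 change of -0.06. With TPM scaling the split was 4 and 4 (all genes tested: 25.8% and 8.83%), and the median was 0.03. No set test was run on this or any other list. SPINT1, an inhibitor of matriptase and hepatocyte growth factor activator, rose from 1.57 ± 0.132 to 2.77 ± 0.316 FPKM (log2 change 0.55, adjusted p = 0.00268 from limma). ELF3, an epithelial ETS factor that passed the filter through its level at 10 Gy, rose from 0.743 to 1.39 FPKM (log2 change 0.45). The desmosomal plakophilin PKP3 fell from 15.2 to 11.3 FPKM (log2 change -0.39).

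Of the mesenchymal list (35 genes, VIM, CDH2 and FN1 included), 25 were tested. Of these, 8 were called higher and 6 lower (all genes tested: 11.9% and 23.7%), with a median log2 change of 0.08. Of its matrix genes, FBN1 (fibrillin 1) rose from 4.33 ± 0.373 to 6.16 ± 0.202 FPKM (log2 change 0.43, adjusted p = 0.00249 from limma) and COL1A1 rose from 3.03 ± 0.0675 to 4.19 ± 0.146 FPKM (log2 change 0.37). AXL, which encodes a receptor tyrosine kinase, fell from 259 ± 4.28 to 184 ± 4.63 FPKM (log2 change -0.49, adjusted p = 0.000445 from limma). With TPM scaling the split of this list was 13 higher and 4 lower (all genes tested: 25.8% and 8.83%). Both scalings thus gave calls in both directions within the list.

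Among 22 EMT transcription factors, ZEB1, SNAI2 and TWIST1 included, 10 were under 1 FPKM at 0 Gy, with TWIST2 and GSC listed at 0 in every library. Of the 12 tested, 3 were called higher and 3 lower (all genes tested: 11.9% and 23.7%). With TPM scaling the split was 4 and 2 (all genes tested: 25.8% and 8.83%). SNAI1 (SNAIL), the paralog of SNAI2, rose from 1.95 ± 0.298 to 2.98 ± 0.385 FPKM (log2 change 0.43, adjusted p = 0.0154 from limma), where SNAI2 had a log2 change of -0.21 that was not called. SOX4 rose from 2.66 to 3.68 FPKM (log2 change 0.35). FOSL1, which encodes the AP-1 subunit FRA-1 and was the most abundant of the list, fell from 271 ± 2.65 to 196 ± 7.45 FPKM (log2 change -0.47, adjusted p = 0.000593 from limma), and ETS1 fell from 48.2 to 37.1 FPKM (log2 change -0.37).

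Of 25 tested genes for CDH1 co-repressors and for enzymes that turn over Snail proteins, 2 were called higher and 13 lower. The median log2 change was -0.10, and over all genes tested 11.9% were called higher and 23.7% lower. RCOR1 (CoREST) rose from 12.7 to 15.0 FPKM (log2 change 0.22) and HDAC1 from 40.5 to 43.5 FPKM (log2 change 0.10). AJUBA, a LIM protein that serves Snail as a co-repressor, fell from 65.8 to 49.8 FPKM (log2 change -0.39), and the histone methyltransferase gene SUV39H1 fell from 9.56 to 7.72 FPKM (log2 change -0.28). With TPM scaling the split was 2 higher and 3 lower (all genes tested: 25.8% and 8.83%). The number of falls in this list thus depends on the scaling. SUV39H1 was no longer called with TPM (adjusted p = 0.0533 from limma).

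Of the catenin genes, which encode proteins that join cadherins to the cytoskeleton, CTNNA1 was at 81.7 FPKM and CTNNB1 at 39.2 FPKM at 0 Gy. CTNND2 was listed at 0. CTNNB1 and CTNND1 were called higher (log2 changes 0.22 and 0.14, adjusted p = 0.00268 and 0.0159 from limma). CTNNA1 was not called on the deposited scale (log2 change 0.09), and was called with TPM scaling (log2 change 0.22, adjusted p = 0.00142 from limma). Of 14 tested cadherin, catenin and nectin genes, 6 were called higher and 3 lower (all genes tested: 11.9% and 23.7%), with a median log2 change of 0.11. With TPM scaling the split was 9 and 2 (all genes tested: 25.8% and 8.83%). JUP (plakoglobin, or gamma-catenin) rose from 18.6 ± 1.29 to 26.6 ± 0.652 FPKM (log2 change 0.49, adjusted p = 0.000960 from limma), and CDH24 rose from 6.73 to 9.75 FPKM (log2 change 0.48). CDH4 fell from 7.43 ± 0.772 to 4.47 ± 0.252 FPKM (log2 change -0.62, adjusted p = 0.00145 from limma), and CTNNAL1, an alpha-catenin relative, fell from 129 to 106 FPKM (log2 change -0.28).

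Of 15 tested genes for fibronectin receptors and assembly, 1 was called higher and 5 lower (all genes tested: 11.9% and 23.7%). With TPM scaling the split was 4 and 4 (all genes tested: 25.8% and 8.83%). TGM2, the transglutaminase that crosslinks fibronectin and binds it beside integrins, rose from 54.6 ± 1.65 to 73.4 ± 2.21 FPKM (log2 change 0.42, adjusted p = 0.000635 from limma). The urokinase receptor gene PLAUR fell from 48.2 to 35.4 FPKM (log2 change -0.43), and TNC (tenascin C) from 10.7 to 8.22 FPKM (log2 change -0.35). ITGA5 and ITGB1, whose products form the main fibronectin receptor, had log2 changes of 0.06 and -0.08 and were not called. With TPM scaling ITGA5 was called (log2 change 0.18, adjusted p = 0.0108 from limma).

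Of 16 tested genes linked to CD44 or hyaluronan, CD24 included, 3 were called higher and 5 lower (all genes tested: 11.9% and 23.7%). HMMR, a hyaluronan-binding protein that also sits on the mitotic spindle, rose from 2.74 ± 0.0396 to 4.63 ± 0.234 FPKM (log2 change 0.59, adjusted p = 0.000593 from limma). CD24, which is read against CD44 in breast cancer cells, rose from 9.55 to 12.8 FPKM (log2 change 0.39). EZR (ezrin), which links CD44 to actin, fell from 123 to 107 FPKM (log2 change -0.20), and MMP9 fell from 1.64 ± 0.549 to 0.861 ± 0.0235 FPKM (log2 change -0.48, adjusted p = 0.0444 from limma). MMP9 passed the filter through its level at 0 Gy. With TPM scaling EZR and MMP9 were no longer called, and the split of the list was 3 higher and 0 lower (all genes tested: 25.8% and 8.83%).

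Of 16 tested regulators of EMT-linked exons, 5 were called lower (all genes tested: 23.7%) and 11 were not called. With TPM scaling 4 were called higher and 4 lower (all genes tested: 25.8% and 8.83%). PTBP1 fell from 120 ± 1.299 to 94.8 ± 1.17 FPKM (log2 change -0.34, adjusted p = 0.000593 from limma) and SRSF3 from 61.9 to 50.5 FPKM (log2 change -0.29). Of 6 tested partners of the vimentin filament and other filament genes, 2 were called lower (all genes tested: 23.7%) and 4 were not called. With TPM scaling the split of these filament genes was 2 higher and 1 lower (all genes tested: 25.8% and 8.83%). FLNA (filamin A) fell from 417 ± 18.8 to 333 ± 6.63 FPKM (log2 change -0.32, adjusted p = 0.00247 from limma), and KRT7 fell from 121 to 105 FPKM (log2 change -0.19), a call that ended with TPM scaling. PLEC (plectin), which ties vimentin to other structures, had a log2 change of 0.02. With TPM scaling the median log2 change lay between 0.02 and 0.23 in each of the 9 lists described here, so a median below 0 in any of them depends on the scaling.

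**Figure D5:**
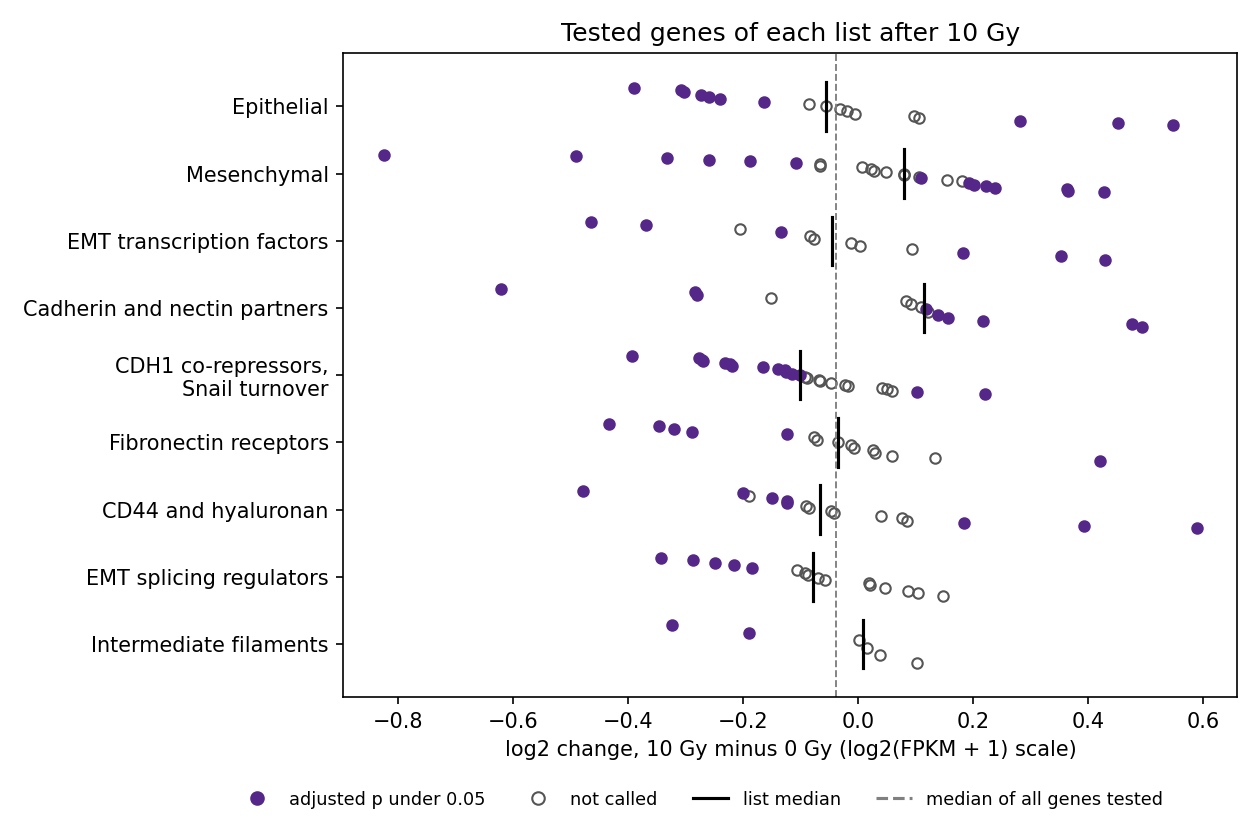
log2 change after 10 Gy of the tested genes in 9 lists, filled where the adjusted p from limma was under 0.05, with a black bar for each list's median and a dashed line for the median of all genes tested (-0.04). The mesenchymal and the cadherin lists have the highest medians, 0.08 and 0.11, and the genes of each list lie on both sides of the line.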

How the data were processed

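The 6 libraries of MDA-MB-231 RNA, 3 at 0 Gy and 3 taken 24 h after 10 Gy, were grouped by the treatment given in the labels. The values the authors deposited are FPKM, from a sequencing provider's paired-end reads of polyA libraries. The submitters' processing notes name HISAT2 and GRCh38, and the counting program is not given in the sources used here. Identifiers matched GENCODE 29, whose summed exon bases equal the deposited lengths of the 9 members. Multiplying FPKM by length and by the depth implied for a library gave whole reads (within 0.01) for 100% of values above 0. The scaling factor left in the values, own reads over implied depth, was between 0.963 and 1.03.

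Doses were compared by limma 3.58.1 under R 4.3.3, using eBayes with an intensity trend, on log2(FPKM + 1), a scale that understates the change of low genes, for every gene whose mean reached 1 FPKM. The procedure was checked on simulated data with few changed genes, balanced in direction, and no difference in scaling between doses. That check does not cover the dependence on scaling. The members and gene lists were chosen with earlier results of these data known, and the lists come from general knowledge. Up to 2 rising and 2 falling called genes of each list, those that moved furthest, are named, except for a few genes that are not reported here, and other genes named with a level or a value were chosen after their values were seen. For a symbol with several entries the most abundant was taken. Alternatives covered the pseudocount, the filter, 4 scalings, limma-voom on recovered reads, a replicate block, the eBayes trend and each library left out. Scaling to own library size and the levels per longest transcript were added after the data were seen. The ratios over VIM and ZEB1, and those of CD44, were outside the plan. Plots used matplotlib 3.10.9 under Python 3.11.15.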

Additional observations from a re-analysis of the deposited data

How the results depend on the processing

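VIM and ZEB1 were called in the same direction in all 16 alternatives, with log2 changes between -0.27 and -0.13 and between 0.18 and 0.30. CD44 was called in 3 of 16, FN1 in 4, SNAI2 in 1 and EPCAM in none (limma, unadjusted p = 0.469). With TPM scaling, the log2 change of CD44 turned to 0.021 and that of EPCAM to 0.018. Own library size was added after the data were seen. Scaling moved the split of all called genes from 1443 higher and 2874 lower to 2556 and 1444 with upper quartile scaling, to 3127 and 1071 with TPM, and to 2294 and 1651 with own library size, and the median log2 change of all genes tested from -0.04 to 0.07 with TPM. Without a filter, 1815 genes were called lower. Leaving out a library gave between 2660 and 3993 genes called, between 852 and 1393 higher and between 1808 and 2630 lower, with the lowest counts without 10 Gy replicate 1 or 2. Same-numbered libraries did not deviate together (correlations of -0.04, -0.03 and -0.10). With 3 libraries per dose, these values cannot show whether the libraries were prepared in matched sets. A replicate block gave 3503 genes called and left VIM and ZEB1 as the 2 members called, with CD44 lost (adjusted p = 0.0984 from limma). CDH2 and TWIST1 had too few reads for a call, and CDH1 fell under the 1 FPKM filter. With the filter at 0.1 FPKM, CDH1 had a log2 change of 0.04 and was not called (adjusted p = 0.743 from limma). Without a filter it was not called either (adjusted p = 0.754 from limma).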

Other observations

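Of 9 leukocyte and endothelial markers, CD3E was listed at 0 in every library, PTPRC averaged 0.00404 FPKM at 0 Gy, and the summed level was between 3.53 and 5.13 FPKM at 0 Gy and between 4.93 and 6.21 FPKM at 10 Gy, carried by CD14, PECAM1 and KDR. PECAM1 rose from 1.22 to 1.94 FPKM (log2 change 0.40, adjusted p = 0.00265 from limma). Among 9 luminal breast markers, TFF1 was at 1.08 FPKM at 0 Gy and 1.92 FPKM at 10 Gy (log2 change 0.51, adjusted p = 0.0466 from limma). That call ended with pseudocount 0.1, with the filter at 0.1 FPKM or without one, and with limma-voom. A replicate block and a fit without the eBayes trend ended it too, as did leaving out 0 Gy replicate 3 or any single library at 10 Gy. XBP1 fell from 28.6 to 24.1 FPKM (log2 change -0.24, adjusted p = 0.00787, from limma as for TFF1, and 0.0661 with TPM scaling), while the luminal factor FOXA1 was at 0.0241 FPKM at 0 Gy.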
